A study of Mus musculus with 4 samples.

Results

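The cells described here are 1039 of 16658 quality-filtered cells from mouse limb bone marrow, selected on measured transcript counts as expressing the matrix genes Col12a1 and Olfml2b while carrying little osteocalcin. A barcode was kept as a cell when it had 1000 or more UMIs (unique molecular identifiers, 1 per captured transcript) from 500 or more genes, with mitochondrial UMIs at 10% or less. A kept cell was a member with at least 3 UMIs each of Col12a1 and Olfml2b, under 1000 CPM (gene UMIs per 1000000 UMIs) of Bglap and Bglap2 together, and under 2000 CPM of Mepe and Dmp1 together. Members also had under 2000 CPM of Cxcl12 and no UMI of the endothelial genes Cdh5 and Pecam1. These 9 genes chose the members, so their levels are given as a description and support nothing.

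The study used droplet 3′ single-cell RNA sequencing (10x Genomics) on sorted live marrow cells negative for CD45 and Ter119, from 3 control mice and 3 mutant mice on the C57BL/6 background at postnatal day 12. The mutant genotype is Prx1-cre;Mettl3-fl/fl, in which Cre is active in limb mesenchyme and is meant to delete Mettl3, which encodes the catalytic m6A methyltransferase, in that lineage. The genotype of the control mice is labelled only control, and that of mutant 2 only mutant. There were 2 libraries per genotype, called control 1, control 2, mutant 1 and mutant 2 in order of deposition, and the labels do not tie mice to libraries. The p-values below therefore compare libraries, or sums within them, and not mice, and the spread of these libraries may be technical. Those from edgeR also draw each gene's variance in part from the other genes tested.

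Osteoblasts arise from mesenchymal progenitors through a stage in which Runx2, Sp7, Alpl and Ibsp are on and osteocalcin is not yet abundant. Col12a1 encodes type XII collagen, which decorates collagen I fibrils in periosteum, tendon and other dense tissue, and Tnc and Tnn encode tenascins, extracellular matrix glycoproteins found at sites of bone and dense connective tissue formation. Ccn2 encodes connective tissue growth factor, a matricellular protein induced by YAP and TGF-beta signalling, and Omd encodes osteomodulin, a keratan sulfate proteoglycan of mineralized matrix.

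Members came almost entirely from the mutant libraries. Of the kept cells they were 46 of 5808 in control 1 (0.792%, exact 95% interval 0.580 to 1.05), 0 of 3635 in control 2 (exact interval 0 to 0.101, while 3 counts would be 0.0825%), 704 of 2628 in mutant 1 (26.8%, 25.1 to 28.5) and 289 of 4587 in mutant 2 (6.30%, 5.61 to 7.04). Both mutant libraries were above the 2 control libraries, and they differed from each other beyond counting error. Among gated bone-lineage cells (members, Bglap-high osteoblasts, Mepe/Dmp1-high cells and Cxcl12-high Lepr-positive cells), members made up 3.73% of 1233 cells, 0% of 79 cells (exact interval 0 to 4.56, while 3 counts would be 3.8%), 41.2% of 1709 cells and 21.4% of 1351 cells in the same order. Control 2 therefore had few cells in which members could have been found. The mean share of kept cells was 0.396% in controls and 16.5% in mutants, a difference of 16.2 percentage points, and that of gated cells 1.86% and 31.3%, a difference of 29.4 points. For both differences the exact two-sided permutation test gave p = 0.333, its minimum with 4 libraries. Without mutant 1 the differences were 5.90 and 19.5 points, and without mutant 2 they were 26.4 and 39.3 points. Within the pair of libraries processed with Cell Ranger 5.0.1 (control 1 and mutant 1) the differences were 26.0 and 37.5 points, and within the pair processed with 6.1.2 they were 6.30 and 21.4 points. The intervals cover counting error only. The file of mutant 1 held only 3352 called barcodes, while the other files held 1729373 to 6794880 barcodes. Kept cells were thus drawn from unlike sets of barcodes, and the part of this in the shares was not tested.

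**Figure D1:**
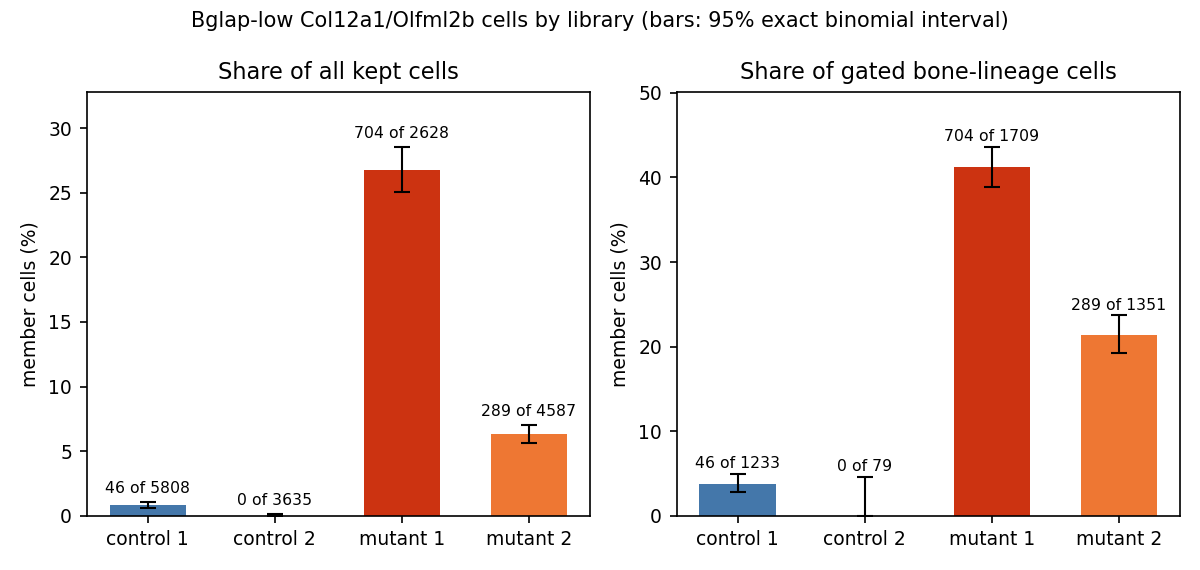
Bars give the percentage of kept cells (left) and of gated bone-lineage cells (right) that were members in each library, with exact 95% binomial intervals and the counts above each bar. Mutant 1 stood highest at 26.8% and 41.2%, and control 2 held no member.

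Most candidate cells of the control libraries were lost to the limit on Cxcl12, while in the mutant libraries the limit on osteocalcin took the largest part of the cells removed. Cells with 3 or more UMIs of both Col12a1 and Olfml2b numbered 340, 18, 1122 and 598 in control 1, control 2, mutant 1 and mutant 2. The Cxcl12 limit alone excluded 267, 14, 49 and 19 of these, and the osteocalcin limit alone 13, 2, 333 and 230. In the control libraries most cells with both genes were Cxcl12-high, 276 of 340 in control 1 and 15 of 18 in control 2. Near the osteocalcin limit, 2 members of control 1, 62 of mutant 1 and 28 of mutant 2 lay between 800 and 1000 CPM, and 1, 53 and 25 cells that met every other criterion lay between 1000 and 1200 CPM. The limit thus passed through a range of osteocalcin levels that held similar numbers of cells on either side.

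Members were deeply covered cells in all libraries that had them, and the gate's minimum of 3 UMIs of each gene favours such cells. Their median depth was 19245 UMIs in control 1, 19494 in mutant 1 and 25273 in mutant 2, with medians of 4368, 4197 and 5095 genes, and their summed UMIs were 932027, 14945845 and 7691852. The library totals ran from 47390414 to 116863081 UMIs. With every cell thinned to 5000 UMIs before the gate was applied, 12, 0, 357 and 159 members remained. Libraries shared 2 to 10 kept barcodes per pair, and none of these barcodes was a member in both libraries. Scrublet marked 3, 10 and 11 members as possible doublets, and these were kept.

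Of the markers proposed for these cells and not used by the gate, Tnc was present in nearly all members and Omd in part of them. Tnc was at 2006 CPM in control 1, 3164 in mutant 1 and 3289 in mutant 2. At least 99.7% of members in each library held a Tnc UMI, against 3.08%, 9.46% and 19.5% of erythroid cells. Among Bglap-high osteoblasts, 45.9%, 92.6% and 79.0% held one, at other depths than the members. Omd was at 104 CPM in control 1, 218 in mutant 1 and 68.5 in mutant 2, with a UMI in 41.3%, 64.8% and 43.6% of members. Omd was thus found in a fraction of the members in every library, and mutant 1 was the highest. It was also found in 53.4%, 54.3% and 30.0% of Bglap-high osteoblasts, so neither gene was particular to members.

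Osteoblast genes that act before osteocalcin were at levels far above those of erythroid cells of the same libraries. Runx2, the master transcription factor of osteoblasts, was at 269, 210 and 282 CPM in members of control 1, mutant 1 and mutant 2, against 2.53, 3.77 and 7.01 CPM in erythroid cells. Sp7, which acts after it, was at 130, 141 and 246 CPM, against 1.01, 4.71 and 14.4 CPM. Alpl, the phosphatase of early mineralization, was at 762, 714 and 754 CPM, against 2.11, 5.65 and 27.9 CPM. Ibsp, a mineral-binding sialoprotein, was at 5472, 16664 and 14036 CPM, against 33.2, 382 and 832 CPM in erythroid cells, and Spp1, osteopontin, was at 26060, 28359 and 12789 CPM. Alpl was nearly level across libraries, while Ibsp was lowest in control 1 and Spp1 lowest in mutant 2. Bglap, used by the gate, remained at 152, 162 and 206 CPM. Barcodes of 10 to 100 UMIs, read as free RNA, held Bglap at 1257 CPM in control 1 and 5620 in mutant 2. Ibsp was there at 503 and 4042 CPM. The part of free RNA in the member levels was not tested.

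Surface genes used to isolate skeletal or fibroblastic progenitors were divided. Thy1, Ly6a and Cd34 had no UMI in the 46 members of control 1. In mutant 1 they were at 1.07, 9.03 and 2.07 CPM, and in mutant 2 at 0.260, 0.650 and 0.130 CPM. Cd200 was at 221, 226 and 181 CPM, and the integrin gene Itgav at 81.5, 105 and 87.9 CPM. Pdgfra was at 107, 72.9 and 69.7 CPM, and the limb mesenchyme factor Prrx1 at 221, 271 and 228 CPM. Cd200, Itgav, Pdgfra and Prrx1 were thus near or above 70 CPM in all 3 libraries, and Thy1, Ly6a and Cd34 under 10. The cells are called members here.

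Markers of other cell types were mostly low in members, apart from blood genes. The 5 endothelial markers summed to 0, 0.401 and 2.47 CPM in control 1, mutant 1 and mutant 2. Among 5 tendon and enthesis markers, Thbs4 was at 0 in control 1 and mutant 2, and the list summed to 136, 336 and 359 CPM. Within it, Scx, the tendon lineage transcription factor, was at 13.9, 135 and 84.0 CPM and Tnmd at 2.15, 5.42 and 1.30 CPM. The osteocyte gene Sost was at 0 in every library. Smooth muscle and pericyte markers summed to 62.2, 254.5 and 154.7 CPM. Osteoclast markers summed to 502, 158 and 181 CPM, and chondrocyte markers to 96.6, 125 and 171 CPM. The 5 marrow stroma markers summed to 550, 218 and 146 CPM, with Cxcl12, a gate gene, at 351, 104 and 95.8 CPM, and Adipoq was at 0 in control 1. The list of B-lineage genes summed to 631, 361 and 326 CPM, nearly all of it Ebf1, which marrow stroma also expresses, with Cd79a, Cd79b and Vpreb1 each under 1 CPM.

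Blood transcripts differed between libraries. The 4 erythroid markers used here summed to 2489 CPM in control 1 and to 31.7 and 1283 CPM in mutant 1 and mutant 2. The 5 neutrophil markers summed to 2.15, 203 and 7851 CPM in the same order, and S100a8, S100a9 and Ltf were at 0 in control 1. In mutant 2 the neutrophil signal lay in few cells: 20 of 289 members, each with at least 20000 CPM of the list, carried 97.1% of its sum over cells, while the median member had 139 CPM. Members with 2000 CPM or more of erythroid and neutrophil markers together numbered 3, 4 and 36 in control 1, mutant 1 and mutant 2. The part of these transcripts in the levels of other genes was not tested, except by leaving those cells out of the 2 fits below.

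Ccn2, Omd and Tnn set the libraries apart in different orders. Ccn2 was at 216 CPM in members of control 1, 618 in mutant 1 and 133 in mutant 2. The Ccn2 level of mutant 1 was the highest and the 2 mutant libraries lay on either side of control 1. In control 1, however, 75 and 26 of the 201 Ccn2 UMIs came from 2 cells. The order of control 1 and mutant 2 for Ccn2 thus rests on few cells. Omd kept the same order, with 218 CPM in mutant 1 above 104 in control 1 and 68.5 in mutant 2. Tnn ran differently, at 24.7 CPM in control 1, 81.3 in mutant 1 and 115 in mutant 2, so that both mutant libraries were above control 1. The exact 95% Poisson intervals of the 3 libraries did not overlap for any of these genes. These intervals cover counting error of the summed UMIs only, and not the spread between cells or between libraries.

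In Bglap-high osteoblasts and Cxcl12-high Lepr-positive cells Ccn2 was also highest in mutant 1, but mutant 2 was above control 1. In Bglap-high osteoblasts Ccn2 was at 24.2 and 3.07 CPM in control 1 and control 2 and at 242 and 31.7 CPM in mutant 1 and mutant 2, below the members in each library that had members. In Cxcl12-high Lepr-positive cells it was at 422, 194, 2503 and 566 CPM, above the members. Tnn was at 20.7, 82.8, 46.0 and 76.0 CPM in Bglap-high osteoblasts, and in Cxcl12-high Lepr-positive cells it was at 1.93 CPM in control 1 and 0 in the other three. Omd in Bglap-high osteoblasts was at 152, 255, 149 and 72.8 CPM, so members were above them in mutant 1 only. Members thus held an intermediate Ccn2 level and, in the mutant libraries, the highest Tnn level of the 3 gated groups.

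**Figure D2:**
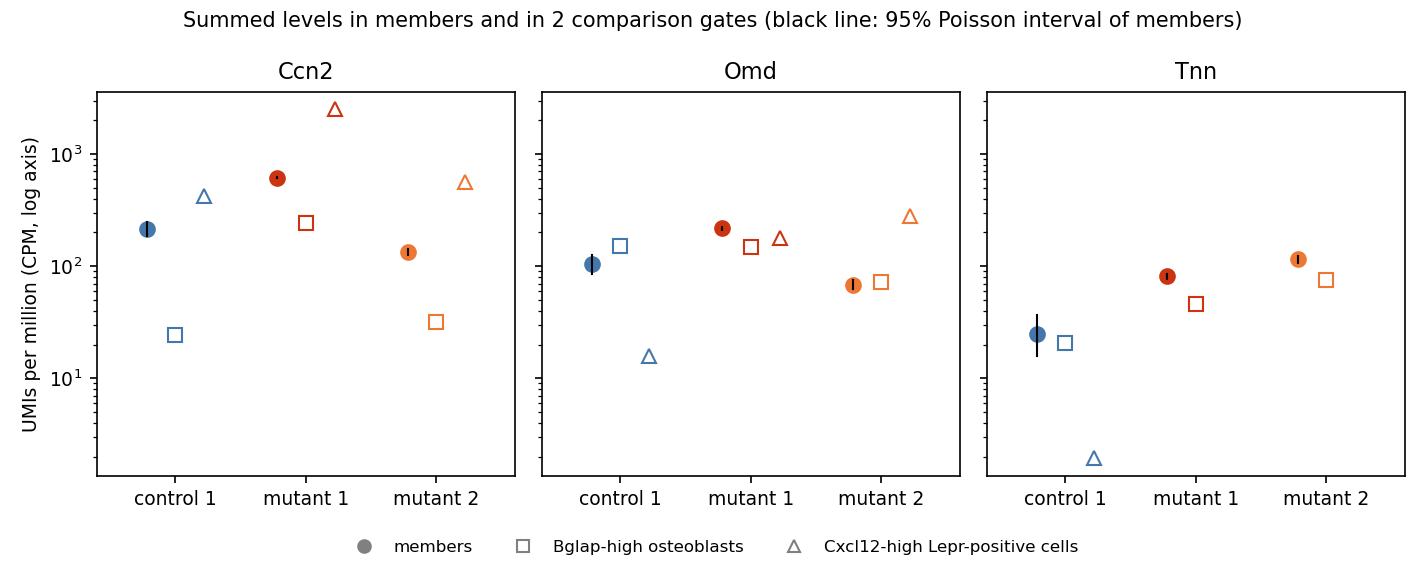
Each point is a gene's summed level (CPM, log axis) in 1 population of 1 library: filled circles are members with their 95% Poisson interval, open squares Bglap-high osteoblasts and open triangles Cxcl12-high Lepr-positive cells. Control 2 is left out since it had no member, and Tnn in the Cxcl12-high cells of the mutant libraries was 0 and cannot be drawn. Ccn2 in members ran from 133 to 618 CPM and always lay between the other populations.

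With members thinned to 5000 UMIs, the shares of cells with a UMI put mutant 1 highest for Ccn2 and Omd and control 1 lowest for Tnn, as the CPM did. The order of control 1 and mutant 2 for Omd was not kept. Ccn2 was detected in 27.3% of members of control 1 (exact 95% interval 14.96 to 42.8), 57.8% in mutant 1 (54.0 to 61.5) and 26.8% in mutant 2 (21.7 to 32.3). Omd was detected in 20.5%, 42.9% and 21.1%, and Tnn in 9.09% (2.53 to 21.7), 19.8% (16.9 to 23.0) and 20.4% (15.9 to 25.6). Mutant 1 therefore stood apart for Ccn2 and Omd, while for Tnn the 3 intervals overlapped. The shallower cells left out numbered 2, 7 and 5, and the unthinned shares were 47.8%, 73.6% and 40.8% for Ccn2 and 13.0%, 35.8% and 38.8% for Tnn. In erythroid cells of the same libraries, which should lack these genes, thinned detection of Ccn2 was 0.865%, 1.49% and 2.79%, of Omd 1.01%, 5.97% and 1.20%, and of Tnn 0% (0 of 1387 cells, which allows up to 0.216%), 1.49% and 1.60%. Detection in members was above this background in each of these libraries. The background cells, with median depths of 19500, 11666 and 16363 UMIs, were thinned to the same 5000 UMIs.

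Within the mutant libraries, Tnn-positive members (1 or more UMI) carried less Ccn2 than Tnn-negative members of the same library. Tnn-positive members numbered 6 of 46 in control 1 (13.0%), 252 of 704 in mutant 1 (35.8%) and 112 of 289 in mutant 2 (38.8%). They were deeper, with a median of 23482 against 17720 UMIs in mutant 1 and 29496 against 22815 in mutant 2, so that part of the Tnn-negative cells may hold undetected Tnn. Ccn2 (chromosome 10, 24595442 to 24598683, plus strand of mm10) was at 499 CPM in Tnn-positive and 702 in Tnn-negative members of mutant 1, and at 105 and 154 CPM in mutant 2. Its log2 difference of -0.49 ± 0.08 (SE, 2 libraries) passed the edgeR quasi-likelihood test with the library as a block (Benjamini-Hochberg adjusted p = 0.0272). With the osteocalcin limit at 500 CPM the difference was -0.73 and no longer passed (adjusted p = 0.116). Control 1 had too few Tnn-positive cells for the test and went the other way, with 896 CPM in 6 cells against 121 in 40. In that library 75 and 26 of the Ccn2 UMIs of the Tnn-positive members came from 2 cells.

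Omd showed no such shared direction. Omd (chromosome 13, 49582462 to 49592822, plus strand) was at 215 CPM in Tnn-positive and 220 in Tnn-negative members of mutant 1, at 90.9 and 51.3 in mutant 2, and at 52.7 and 111 in control 1. The 2 mutant libraries differed in what they showed, with level values in mutant 1 and a higher Tnn-positive value in mutant 2. Its fitted log2 difference was 0.36 ± 0.18 (SE, 2 libraries) and did not pass the same edgeR test (adjusted p = 0.596). The difference was 0.00 when members with 3 or more Aspn UMIs were left out.

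In cells thinned to 5000 UMIs, Ccn2, Omd and Tnn were found together in few members. Ccn2 was detected in 66 of 138 Tnn-positive members of mutant 1 (47.8%, exact 95% interval 39.3 to 56.5) and 337 of 559 Tnn-negative ones (60.3%, 56.1 to 64.4). In mutant 2 it was detected in 12 of 58 (20.7%, 11.2 to 33.3) and 64 of 226 (28.3%, 22.5 to 34.7). Omd was detected in 44.9% of Tnn-positive and 42.4% of Tnn-negative members of mutant 1, and in 32.8% (21.0 to 46.3) and 18.1% (13.3 to 23.8) in mutant 2. Members with Tnn and neither of the other two made up 5.45% of thinned members in mutant 1 and 9.51% in mutant 2, and those with Ccn2 or Omd and no Tnn 57.7% and 32.7%. Members with all 3 numbered 28 of 697 in mutant 1 and 0 of 284 in mutant 2 after thinning, and 112 of 704 and 14 of 289 at full depth, so that the thinned counts show what is detectable at 5000 UMIs and not which cells express all 3. The share with Ccn2 was lower among Tnn-positive members in both mutant libraries, and in both the intervals overlapped.

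**Figure D3:**
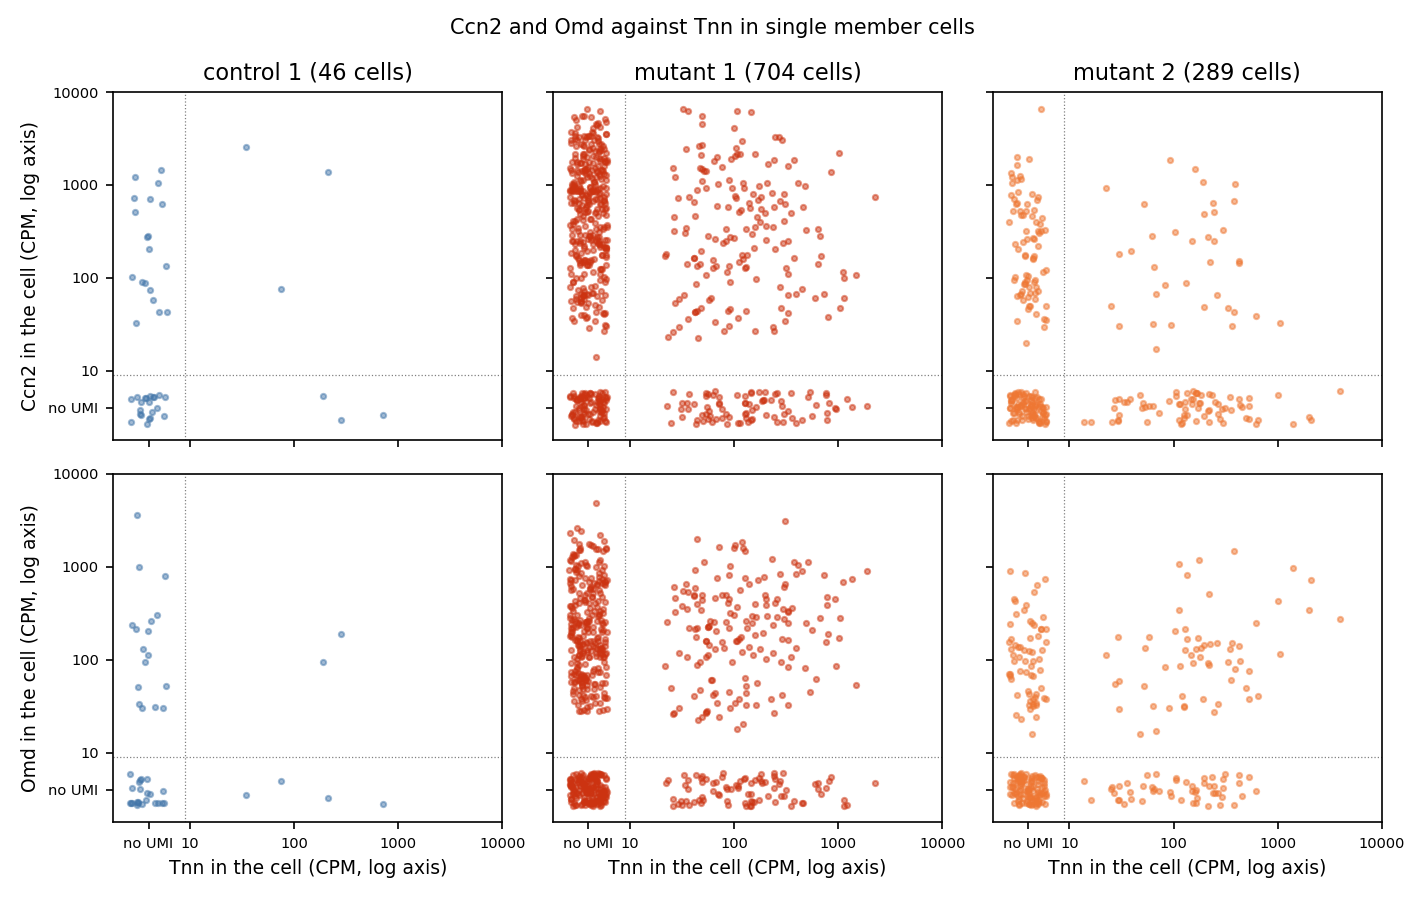
Each point is 1 member cell, with Tnn on the x axis and Ccn2 (top row) or Omd (bottom row) on the y axis, all in CPM on log axes, and cells with no UMI spread at random within the strips marked "no UMI". Tnn-positive cells are found both with and without Ccn2 and Omd, and the strip of Tnn-negative cells with Ccn2 is fullest in mutant 1.

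Tnn-positive members had more Postn, Col1a1, Col1a2 and Fmod than Tnn-negative members of the same library, and less Fbn1, Kitl, Col4a1 and Col4a2. Of 11510 genes tested over 2 mutant libraries by edgeR, 118 passed (1.03%), 65 higher (0.565%) and 53 lower (0.46%) in Tnn-positive cells. Tnn was left out of the test. Postn encodes periostin, a matricellular protein of periosteum, and was at 591 CPM in Tnn-positive against 134 in Tnn-negative members of mutant 1, and at 936 against 182 in mutant 2. Its log2 difference was 2.28 ± 0.09 (SE; edgeR adjusted p = 3.84e-05), the lowest adjusted p of the 118. In control 1, not tested, Postn was at 571 CPM in the 6 Tnn-positive and 266 in the Tnn-negative members.

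Among the 15 tested genes of the collagen list that the gate did not use, a list with no type IV gene, 6 were higher and none lower, with a median of 0.71 against 0.00 over all genes. Col1a1, the main chain of bone collagen, was at 16715 against 10359 CPM in mutant 1 and 18687 against 11657 in mutant 2 (log2 0.72 ± 0.03, edgeR adjusted p = 4.63e-05). Col1a2, Col5a1 and Col11a1, which build or nucleate the same fibrils, were higher by 0.71, 0.83 and 0.76 (edgeR adjusted p = 0.00206, 0.00429 and 0.00283). The beaded-filament genes Col6a1 and Col6a2 were higher by 1.57 and 1.20 (edgeR adjusted p = 0.00919 and 0.017). Col12a1 itself, a gate gene, was at 1228 against 864 CPM and 1497 against 917 CPM. The third type VI gene tested, Col6a3, had a log2 difference of 0.41 that missed the threshold (edgeR adjusted p = 0.0634). Col3a1 missed it too, with a fitted value of 2.15 (edgeR adjusted p = 0.231) from log2 ratios of 0.68 in mutant 1 and 3.98 in mutant 2.

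Among 8 small leucine-rich proteoglycans tested, Fmod and Dcn were higher, none was lower, and the list median was 0.60. Fmod, fibromodulin, a regulator of collagen fibril thickness found in tendon, was at 302 against 112 CPM in mutant 1 and 397 against 178 in mutant 2 (log2 1.33 ± 0.09, edgeR adjusted p = 0.00167). Dcn, decorin, was at 392 against 244 CPM and 484 against 295 CPM (edgeR adjusted p = 0.00543). The tendon and enthesis markers, of which Fmod is 1 of 5, summed to 464 against 246 CPM in mutant 1 and 502 against 249 in mutant 2, with Thbs4 at 0 in mutant 2. Their part in the other differences was not tested.

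Among 12 matricellular genes tested, Postn, Sparc, Spp1 and Thbs1 were higher and Ccn2 was lower, with a list median of 0.40. Sparc, osteonectin, was at 10506 against 7446 CPM in mutant 1 and 11185 against 6814 in mutant 2 (log2 0.64 ± 0.05, edgeR adjusted p = 0.00283). Spp1 was higher by only 0.25 (edgeR adjusted p = 0.0078), and with the cells thinned before the split it was at -0.18 and did not pass. Of the 17 genes of the osteoblast program 3 were higher (Postn, Sparc and Spp1) and none lower, with a list median of 0.11. The osteoblast and progenitor genes Runx2, Sp7, Pdgfra and Prrx1 did not pass in either direction.

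Other groups showed few or no calls. Of 20 BMP and TGF-beta genes, Tgfbi and Id1, both targets of these signals, were higher by 1.72 and 1.09 (edgeR adjusted p = 0.0064 and 0.0211), and the list median was 0.20. Of 9 AP-1 and stress genes, Fosb and Hspa1b were higher (edgeR adjusted p = 0.0291 and 0.0246), and Hspa1b, which shares reads with its near-identical copy Hspa1a, went to -0.07 with thinned cells. None of the 16 progenitor and periosteal genes, 13 Wnt regulators and targets, 12 cell cycle genes and 14 m6A genes tested passed, with list medians of -0.05, -0.24, -0.16 and 0.02. Cthrc1, which marks matrix-producing osteoblasts, Stc2, a secreted glycoprotein, and Cgref1 were also among the 10 higher genes with the smallest p, at 0.95, 1.62 and 0.86. Of these, Cthrc1 and Cgref1 did not pass with thinned cells (edgeR adjusted p = 0.912 and 0.941).

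The genes lower in Tnn-positive members included Fbn1, Kitl, Ebf3, Col4a1 and Col4a2. Fbn1, fibrillin-1, was at 86.3 against 218 CPM in mutant 1 and 41.6 against 132 in mutant 2 (log2 -1.44 ± 0.10, edgeR adjusted p = 0.00175). Kitl, stem cell factor, was at 13.1 against 52.1 CPM and 3.29 against 29.7 CPM (log2 -2.23 ± 0.22, adjusted p = 0.00429). Ebf3, a transcription factor of marrow stroma, was at 11.7 against 36.0 CPM and 4.79 against 20.0 CPM (adjusted p = 0.00543). The elastic fiber gene Fbln5 differed by -2.91, the collagen receptor subunit Itga1 by -1.27, the potassium channel gene Kcnk2 by -1.66 and the monooxygenase gene Cyp1b1 by -2.07. The type IV collagen genes Col4a1 and Col4a2, neighbours in the genome, differed by -1.13 and -0.93. Cxcl12, limited by the gate to under 2000 CPM, was at 26.9 against 159 CPM and 40.7 against 138 CPM. The other 4 marrow stroma markers together summed to 64.4 against 148 CPM in mutant 1 and 16.4 against 76.1 CPM in mutant 2, with Adipoq at 0 in Tnn-positive cells of both. In control 1 the sums were 149 and 206 CPM, and the part of these markers in the other differences was not tested.

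The Tnn test rests on 4 sums and 1 residual degree of freedom, and the same 2 libraries supply both sides. Its variances and standard errors therefore drew mostly on the other genes, with 7.21 prior degrees of freedom. DESeq2 called 56 genes, of which 51 were among the 118. With cells thinned before the split, which evens the depth of the sides, 81 genes passed and 46 of the 118 were among them, and with the osteocalcin limit at 500 CPM 71 of the 118 were among 95. Without members rich in blood markers 475 genes passed, 117 of the 118 among them, and without members holding 3 or more Aspn UMIs 520 passed, 115 of them shared. The erythroid markers summed to 65.4 CPM in Tnn-positive against 7.98 in Tnn-negative members of mutant 1, and 404 against 1959 in mutant 2, and the neutrophil markers to 192 against 211 and 7724 against 7949.

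**Figure D4:**
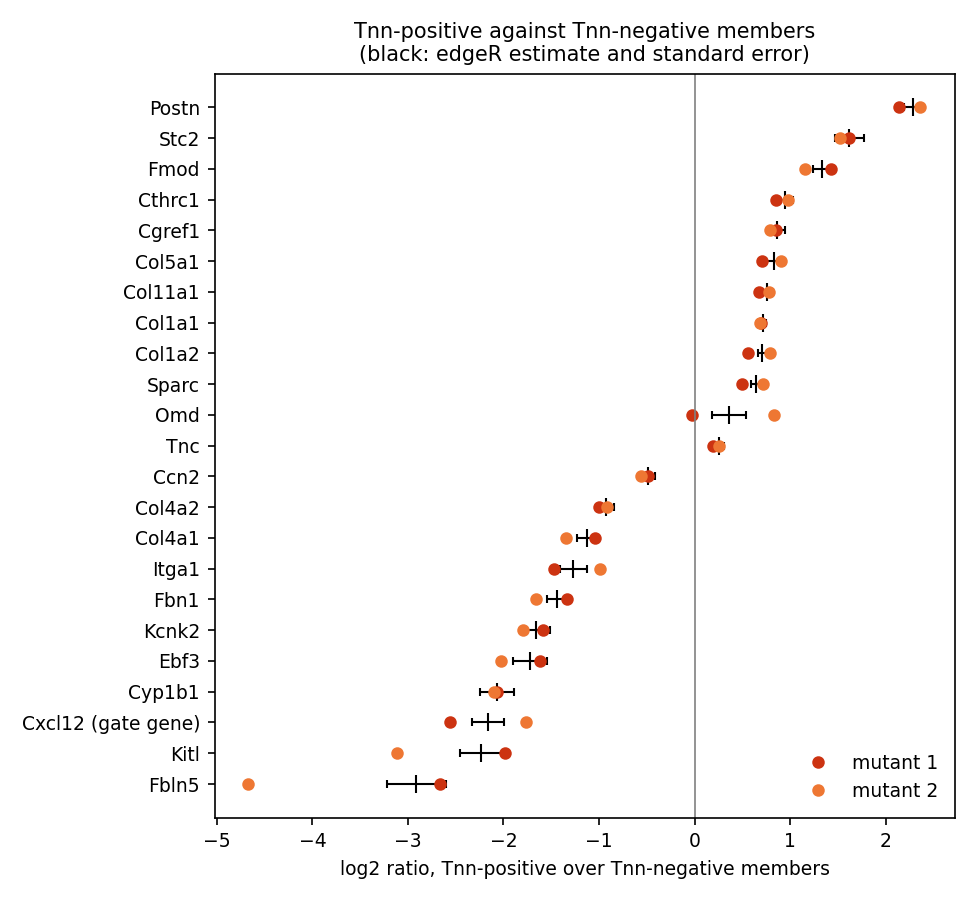
Points are the log2 ratios of Tnn-positive over Tnn-negative members in mutant 1 and mutant 2 for the 20 genes with the smallest p (10 each way) and for Ccn2, Omd and Tnc, and black marks are the edgeR estimate with its standard error. The 2 libraries lie on the same side of 0 for every gene drawn except Omd, which was level in mutant 1. For the 20 genes this follows largely from their choice by the fit to the same 2 libraries.

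Beside Bglap-high osteoblasts of the same libraries, members had less Col1a1, Col1a2 and Col11a1 and more of the cell cycle genes. This comparison is a description with no test, since the gate separated the populations. Members had higher CPM for most of the 8980 genes that reached 10 CPM in members of a library, a set chosen by member level. The median of these genes was 1.57-fold higher in members in control 1, 1.30-fold in mutant 1 and 1.25-fold in mutant 2 (log2 0.65, 0.37 and 0.32). The part of the most abundant osteoblast genes in this shift was not tested. Counted against that median gene, 2723 genes (30.3%) were higher and 2746 (30.6%) lower in members in all 3 libraries.

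The cell cycle list stood highest, with 11 of 12 genes above the median gene in all 3 libraries and a median scaled ratio of 1.86. Mki67, a marker of cycling cells, was 6.37, 3.69 and 2.33 times as high in members as in Bglap-high osteoblasts in control 1, mutant 1 and mutant 2, before scaling. Erythroid cells of these libraries also held Mki67, in 93.9%, 75.7% and 93.1% of cells. Erythroid markers summed to 2489, 31.7 and 1283 CPM in members, against 606, 78.4 and 1141 CPM in osteoblasts. The part of erythroid transcripts in the cell cycle ratios was not tested. Of the progenitor and periosteal list, 9 of 19 genes were above and 2 below the median gene, with a median scaled ratio of 1.56. Only 12 of the 19 reached 10 CPM in members of a library. Thy1, Gli1, Mcam and Grem1, counted as above, did not, and Thy1 had no UMI in either population of control 1. These counts therefore include near-empty genes, unlike the shares over all genes. The pericyte-associated receptor gene Pdgfrb was 11.4, 3.34 and 3.66 times as high, while Ctsk was 0.636, 0.665 and 0.557 times as high.

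The osteoblast program and stress lists lay on the other side. Of the osteoblast program 3 of 17 genes were above and 10 below the median gene, with a median scaled ratio of 0.779, and of the AP-1 and stress genes 0 of 9 were above and 8 below. Col1a1 was at 16250 CPM in members against 100850 in osteoblasts of control 1, 12986 against 45391 in mutant 1 and 14713 against 55412 in mutant 2. Col11a2, a chain of minor fibril collagen, was at 107 against 1436 CPM, 18 against 86.8 CPM and 27.9 against 155 CPM. Collagens split evenly, with 9 of 18 genes above and 8 below the median gene. Of the 18, 16 reached 10 CPM in members of a library, and Col14a1, counted as above, did not.

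Among genes of at least 50 CPM in members, those with the largest ratio to osteoblasts in every library included Myl9, a myosin light chain of contractile cells, at 4.40, 5.88 and 8.50 times. Col4a1 was 4.10, 3.95 and 3.60 times as high, Fbn1 12.8, 4.35 and 3.16 times, and Snai2, a transcription factor of mesenchymal cells, 5.62, 4.05 and 2.95 times. Ccn2 was 8.89, 2.56 and 4.18 times as high. Several genes high in members against osteoblasts, among them Fbn1, Col4a1 and Ccn2, were those lower in the Tnn-positive members, and Col1a1, Col1a2, Col11a1, Sparc and Cgref1 were low in members and higher in the Tnn-positive ones. The members used in both comparisons are the same cells, so these lists are not independent.

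Members of mutant 1 and mutant 2 differed from each other in a small part of their genes. With 1 library on each side there is no replicate check. Of 1577 genes at 100 CPM or more in either, 78 (4.95%) differed by more than 2-fold, 36 higher in mutant 1 and 42 in mutant 2. Led by Ptx3, a secreted pattern recognition protein, at 168 against 29.0 CPM, the genes higher in mutant 1 included Ccn2, Omd, the matrix calcification inhibitor Mgp (153 against 35.4 CPM), the metalloproteinase inhibitor Timp3 (182 against 60.7 CPM) and the collagenase Mmp13 (3589 against 1169 CPM). Control 1 had 3696 CPM of Mmp13 and 185 of Timp3, near mutant 1. The 10 largest differences the other way were neutrophil and globin genes, among them Lyz2, Camp and Hbb-bs, at 239, 518 and 1959 CPM in mutant 2. Of the 78 genes, 46 (59.0%) differed more than 2-fold in the same direction in Bglap-high osteoblasts of the 2 libraries, 86.8% of the 53 genes on that list, and none in the opposite direction. Ccn2 differed 4.66-fold in members and 7.62-fold in osteoblasts, and Omd 3.18-fold and 2.04-fold, so these genes differed between mutant 1 and mutant 2 in both populations.

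Control 1 members could be set against mutant members only on 46 cells of 1 control library. Of 12599 genes, 0 (0%) passed the edgeR quasi-likelihood test with Benjamini-Hochberg adjustment, while 1702 had an unadjusted p under 0.05, and DESeq2 called 105 (58 higher and 47 lower in mutants). The fit had 3 libraries and 1 residual degree of freedom, and no term for the Cell Ranger version could be fitted. Its variances drew mostly on the other genes, with 3.54 prior degrees of freedom. The values below are given without a call.

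Several proteoglycan genes were at higher levels in control 1 than in either mutant library. Dcn was at 1365 CPM in control 1, 305 in mutant 1 and 377 in mutant 2 (log2 -1.92 ± 0.26 SE, edgeR adjusted p = 0.269). Lum, lumican, was at 764, 202 and 174 CPM, and Ogn, osteoglycin, at 200, 64.1 and 55.8 CPM, each with the same adjusted p of 0.269. The list of 8 proteoglycans tested had a median of -0.13 against 0.07 over all genes, with Fmod at 116, 190 and 273 CPM. Tgfbi was at 91.2, 10.5 and 16.2 CPM. For these genes the 2 mutant libraries were close to each other and control 1 stood apart. Bglap-high osteoblasts of control 1, mutant 1 and mutant 2 also had the highest levels in control 1. Dcn was there at 4333, 685 and 1152 CPM, and Lum at 1231, 309 and 318 CPM. Ogn was at 45.15, 29.4 and 21.9 CPM and Tgfbi at 18.35, 2.74 and 12.5 CPM. The higher levels in control 1 were thus not particular to members.

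Other genes were lower in control 1. Ibsp was at 5472, 16664 and 14036 CPM (log2 1.59 ± 0.37, edgeR adjusted p = 0.282), Tnn at 24.7, 81.3 and 115 CPM (log2 2.06 ± 0.32, adjusted p = 0.269) and Tnc at 2006, 3164 and 3289 CPM (adjusted p = 0.371). Ccn2 and Omd, for which the mutant libraries lay on either side of control 1, gave 0.95 ± 1.02 and 0.60 ± 0.82 (edgeR adjusted p = 0.701 and 0.767). Their standard errors exceeded the differences. Bglap-high osteoblasts of control 1 were also below those of mutant 1 and mutant 2 for Ibsp, at 4327, 21532 and 13242 CPM. The same held for Tnc, at 257.5, 1617 and 1709 CPM, and for Tnn, at 20.7, 46.0 and 76.0 CPM. For Tnn, however, osteoblasts of control 2 were above those of both mutant libraries.

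The m6A genes had a list median of 0.38, against 0.07 over all genes, and none of 14 passed edgeR. The floxed gene Mettl3 was at 10.7 CPM in control 1, 5.35 in mutant 1 and 10.3 in mutant 2 (log2 -0.41 ± 0.58, edgeR adjusted p = 0.778), and the 3′ tags may lie outside the deleted part, so these levels check nothing. Ythdf2, an m6A reader that promotes decay of methylated transcripts, was at 23.6, 142 and 145 CPM (log2 2.70 ± 0.30, adjusted p = 0.269). In erythroid cells, outside the Prx1-cre lineage, Ythdf2 was at 35.6, 45.2, 23.5 and 39.3 CPM in control 1, control 2, mutant 1 and mutant 2. In Bglap-high osteoblasts it was at 29.7, 24.6, 100 and 106 CPM, with both mutant libraries above both controls. Erythroid markers in members were 2489 CPM in control 1 against 31.7 and 1283, and their part in these differences was not tested beyond the fit without cells rich in blood markers, which also called 0 genes.

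A small set of members carried the gene for asporin, Aspn, and was chosen after its values were seen, so it is described without a test. Members with 3 or more Aspn UMIs numbered 3 in control 1 (6.52%), 66 in mutant 1 (9.38%) and 21 in mutant 2 (7.27%). Asporin is a proteoglycan of periodontal ligament, cartilage and periosteum, and Aspn (chromosome 13, 49544443 to 49567565) lies beside Omd and Ogn on the same chromosome. Another 1, 25 and 9 members had 1 or 2 Aspn UMIs. Doublet scores marked 0, 1 and 0 of the Aspn-high cells, and their median depth of 17213 UMIs in mutant 1 and 22706 in mutant 2 was below that of the other members, at 19946 and 25382.

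Aspn-high members had high levels of matrix genes of fibrous tissue and kept osteoblast transcription factors. Col3a1, type III collagen of fibrous tissue, was at 1922 CPM in Aspn-high against 26.0 in other members of mutant 1, and at 2460 against 59.3 in mutant 2. Postn was at 2041 against 167 CPM and 3111 against 325 CPM. Ptn, the growth factor pleiotrophin, was at 162 against 6.13 CPM and 477 against 14.2 CPM, and Thbs2, a matricellular thrombospondin, at 492 against 66.04 CPM and 244 against 21.3 CPM. All 4 genes were higher in the Aspn-high cells of both mutant libraries and stood among the first 15 genes when ranked by the smaller of the 2 ratios.

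The bone matrix genes ran the other way in these cells. Ibsp was at 3914 against 17820 CPM in mutant 1 and 1324 against 14942 in mutant 2, and Mmp13 at 1105 against 3814 CPM and 418 against 1223 CPM. Col1a1 was at 6396 against 13584 CPM and 7139 against 15253 CPM. Runx2 was at 145 against 216 CPM in mutant 1 and 358 against 277 in mutant 2, and Sp7 at 90.1 against 145 and 227 against 248, so both transcription factors were present. The 6 osteoblast markers together summed to 11430 against 32641 CPM in mutant 1 and 10101 against 31673 in mutant 2.

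Tnn was detected more often in Aspn-high members than in the others. Of these cells 57.6% in mutant 1 and 95.2% in mutant 2 were Tnn-positive, against 33.5% and 34.3% of the other members, and they carried 26.3% and 40.8% of all Tnn UMIs of the members. Omd was at 516 against 191 CPM in mutant 1 and 256 against 55.1 in mutant 2. Ccn2 differed between the libraries, at 980 against 586 CPM in mutant 1 and 17.6 against 141 in mutant 2. The tendon and enthesis markers summed to 526 against 319 CPM and 491 against 350 CPM, with Tnmd, Mkx and Thbs4 at 0 in Aspn-high cells of mutant 2. In mutant 1, by contrast, Thbs4 was at 60.3 against 0.292 CPM and Tnmd at 59.5 against 0.511 CPM. Scx was lower in Aspn-high cells of both libraries, at 119 against 136 CPM and 17.6 against 88.7 CPM. The smooth muscle and pericyte markers summed to 730 against 211 CPM and 264 against 147 CPM, with Myh11 and Rgs5 at 0 in Aspn-high cells of both, and the part of such cells in these levels was not tested. Without the Aspn-high members, Postn was still higher in Tnn-positive members of the mutant libraries, by a log2 difference of 1.89, and Ccn2 lower, at -0.37. These values come from the same mutant libraries with cells chosen after seeing the data, so they are given as sizes only.

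**Figure D5:**
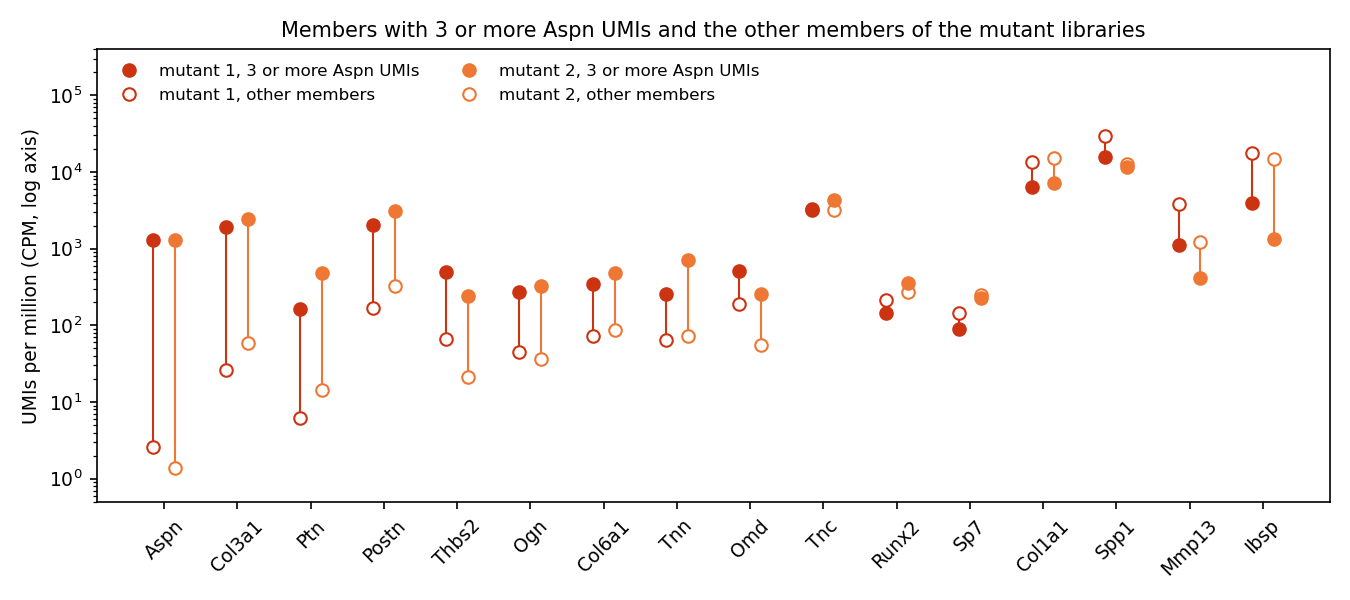
Filled circles are summed levels (CPM, log axis) in members with 3 or more Aspn UMIs and open circles in the other members, for mutant 1 and mutant 2, with a line joining the pair. Col3a1, Postn, Thbs2 and Tnn are higher and Ibsp, Col1a1 and Mmp13 lower in the Aspn-high cells of both libraries.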

How the data were processed

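The authors deposited raw UMI counts for each barcode and gene, and barcode and feature lists. Reads were processed with Cell Ranger 5.0.1 (control 1, mutant 1) and 6.1.2 (control 2, mutant 2) on mm10, per the submitters' processing notes. The headers name Cell Ranger 4 for 3 libraries and 5.0.1 for mutant 1, whose file holds only 3352 called barcodes. The counting annotation was not given in the sources used here, and 32158 of 32285 gene IDs matched GENCODE M21, the source of positions. The near-identical Bglap and Bglap2, Hspa1a and Hspa1b, and globin genes can share reads, so the division of their counts is uncertain.

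The members, lists, gates and tests were chosen with earlier results of these data known. Comparison gates excluded Cdh5 and Pecam1 and needed 3 Col1a1 UMIs (Bglap-high osteoblasts, with 1000 CPM or more of Bglap and Bglap2), 2000 CPM of Mepe and Dmp1, or 2000 CPM of Cxcl12 with 1 Lepr UMI; erythroid cells had 2 Alas2 UMIs and endothelial cells 3 UMIs of Cdh5 and Pecam1. Their cut-offs were set once the files were in hand, and 1 erythroid marker of the original list is not reported here. Counts were summed per library and fitted with edgeR 4.0.16 in R 4.3.3 (TMM, filterByExpr, quasi-likelihood test, Benjamini-Hochberg at 0.05) over libraries with at least 10 members on each side, and tested on simulated data. Shares carry exact Clopper-Pearson and levels exact Poisson 95% intervals. Doublets were scored with Scrublet in scanpy 1.11.5 (top 0.8% per 1000 cells) and kept in the main results.

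Named genes are the gate, contrast and list genes, the 10 smallest p each way in a test, the 15 largest ratios to osteoblasts each way and the 10 largest each way between mutant libraries. Free RNA was read in barcodes of 10 to 100 UMIs, which mutant 1 lacks. In control 1 it held Tnn, Ccn2 and Omd at 1.01, 51.6 and 8.10 CPM, and Tnc and Scx at 99.9 and 0.675 CPM. In mutant 2 it held them at 20.1, 44.5, 27.8, 612 and 52.6 CPM, in the same order. Alternatives were DESeq2 1.42.0, no low-count filter, doublets removed, other UMI, depth and Bglap limits, thinned cells and, added after seeing the data, members rich in blood markers or in Aspn left out.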

Additional observations from a re-analysis of the deposited data

How the results depend on the processing

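Differences in member share kept their direction under every alternative UMI minimum, Bglap limit, depth and doublet setting run. The exact permutation p was 0.333 each, the smallest possible. The Cxcl12 limit was not varied, although it alone excluded 267 of 340 candidate cells in control 1 and 19 of 598 in mutant 2. How far the shares depend on it was not tested. Leaving out a library in turn moved the share of kept cells from 5.90 to 26.4 points and of gated cells from 19.5 to 39.3 points; the lowest values are those without mutant 1 and the highest those without mutant 2. Genes called between genotypes numbered 0 with the settings used and 105 with DESeq2, 1069 with no low-count filter, 3 with doublets removed and 1 with the Bglap limit at 500 CPM. For Tnn-positive against Tnn-negative members, 118 genes compare with 56 by DESeq2, 493 with no low-count filter and 193 with doublets removed. There were 475 without members rich in blood markers and 520 without Aspn-high members, both chosen after seeing the data; the cause was not tested. The other settings gave 95 genes (Bglap limit of 500 CPM), 123 (Tnn-positive from 2 UMIs) and 81 (thinned cells). Of 272 values of named genes in the Tnn test, 240 kept direction and side of the threshold, 23 no longer passed, 7 newly passed and 2 turned, Spp1 to -0.18 and Hspa1b to -0.07, both with thinned cells.

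No paired analysis was possible because the labels number no replicates and control 2 had no member. For the same reason the fit with the Cell Ranger version as a term was not run. Neither fit was run with a library left out, since the genotype fit then loses its only control or its residual degree of freedom, and the Tnn fit keeps 1 library. Depth limits the control side: 46 cells and 932027 UMIs, with 0 members of 79 gated cells in control 2.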

Other observations

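Wnt and BMP genes not described above give further detail of the members. Wif1, a secreted Wnt inhibitor, was at 653 CPM in control 1, 453 in mutant 1 and 318 in mutant 2, while Sfrp2 was at 0, 3.08 and 9.36 CPM. Bmp3, a BMP family member made by osteoblasts and osteocytes, was at 51.5, 113 and 126 CPM, and Bmp4 at 8.58, 43.9 and 12.5 CPM, highest in mutant 1. Bambi, a decoy receptor of BMP and TGF-beta signals, was at 78.3, 231 and 311 CPM. Id3, a BMP target, was at 1662, 924 and 1015 CPM. None of these genes passed the edgeR test between genotypes, which called 0 genes, and the levels are given as a description.

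Mmp9, counted here among osteoclast markers, was at 327 CPM in members of control 1, 27.6 in mutant 1 and 68.8 in mutant 2, while the osteoclast fusion gene Ocstamp was at 0 in all 3 and Acp5 was at 25.7, 1.67 and 4.68 CPM. Fst, the activin antagonist follistatin, was at 13.9, 85.5 and 18.5 CPM, and Tgfb2 at 27.9, 125 and 70.9 CPM, both highest in mutant 1, as Ccn2 was.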
